A study of Mustela putorius furo with 2 samples.

Results

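Dividing EOMES cells of the ferret cortex were selected from single-cell RNA measured on postnatal day 3 in wild-type ferret pups, in dorsal cortex. A cell was taken when it held at least 2 UMIs (unique molecular identifiers, each standing for 1 captured RNA molecule) of EOMES, at least 3 UMIs over the cycle genes TOP2A, MKI67 and CENPF, and at most 1 UMI of OLIG1. The rule found 441 of 14787 cells. They are set against 3 other gated classes. EOMES-negative dividing cells (773) met the same cycle rule with no EOMES UMI. Dividing HOPX cells (247) are those of them with at least 2 UMIs of HOPX, a marker of outer radial glia, and at most 1 of OLIG1. Non-dividing EOMES cells (901) held at least 2 EOMES UMIs, none of the cycle genes and at most 1 of OLIG1.

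The study measured 2 replicates of 1 wild-type group and had no second condition. Per the labels, dorsal cortex was dissociated with papain, libraries were made on the 10x Genomics Chromium platform and sequenced on an Illumina instrument. The deposited matrix carries 2 barcode suffixes, called here library A (9782 cells, 41836475 UMIs, median 3602.5 per cell) and library B (5005 cells, 18907140 UMIs, median 3068). The labels do not say which suffix is which replicate, or whether the replicates came from separate animals. The p-values therefore cover at most variation between these 2 libraries, which may be technical. Each rests on a variance estimated with information shared across genes. A small p-value thus does not measure how closely the libraries agreed on that gene. The extent of this sharing was estimated anew in each comparison, so p-values of different comparisons cannot be set side by side. A total of 21 barcode sequences occurred under both suffixes, 1 of them in a dividing EOMES cell.

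Intermediate progenitors are the basal, transit-amplifying cells of the developing cortex. Radial glia, which line the ventricle or, as outer radial glia, sit in the outer subventricular zone, give rise to them, and they divide to make excitatory neurons. EOMES (TBR2), a T-box transcription factor, is their defining marker. Carnivores such as the ferret have a thick outer subventricular zone that holds both outer radial glia and intermediate progenitors.

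Dividing EOMES cells made up 3.15% of library A (308 cells, exact 95% Clopper-Pearson interval 2.81 to 3.51%) and 2.66% of library B (133 cells, 2.23 to 3.14%). Of all dividing cells they were 33.6% in library A (30.6 to 36.8%) and 28.4% in library B (24.4 to 32.7%). Of cells with at least 2 EOMES UMIs and at most 1 of OLIG1, 28.1% in library A (25.4 to 30.8%) and 28.3% in library B (24.3 to 32.6%) met the cycle rule. All such intervals cover counting error only. The rule is a cut through a continuous range. Exactly 2 EOMES UMIs were held by 113 members, and 153 otherwise matching dividing cells held 1. Exactly 3 cycle UMIs were held by 31 members, while 42 cells with enough EOMES held 2 cycle UMIs. The members were deep cells, with median counts of 7820 UMIs in library A and 7250 in library B, against 6913.5 and 5713 in EOMES-negative dividing cells, 7984 and 7046.5 in dividing HOPX cells, and 4252 and 3690 in non-dividing EOMES cells.

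**Figure D1:**
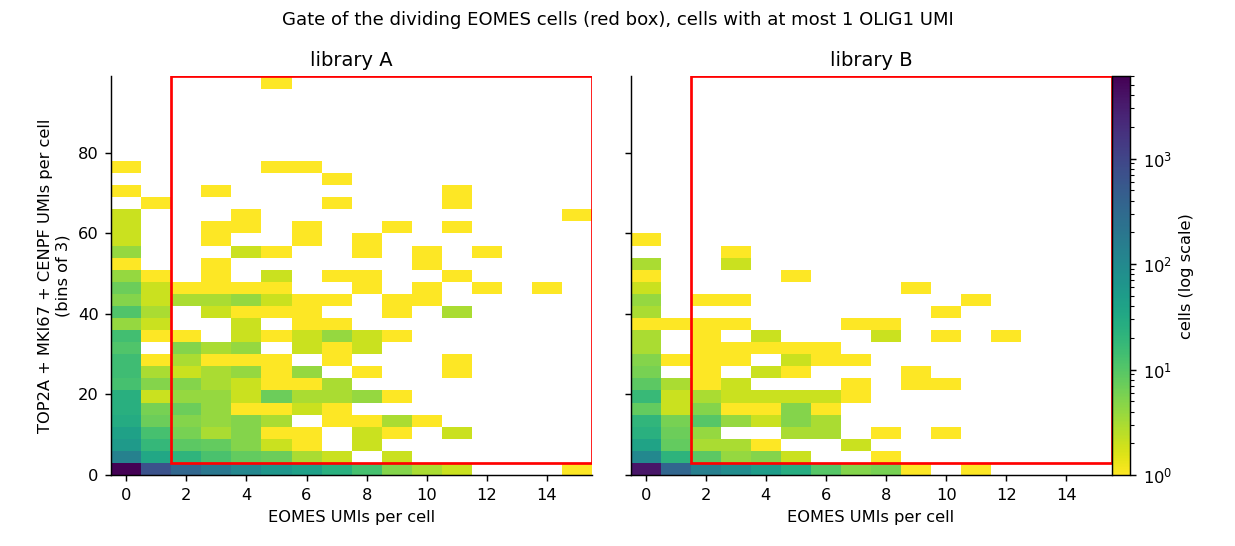
Number of cells (colour) by EOMES UMIs per cell on the horizontal axis and summed TOP2A, MKI67 and CENPF UMIs per cell on the vertical axis, with a panel for each library, for cells with at most 1 OLIG1 UMI. The boxes mark the 441 dividing EOMES cells (308 in library A and 133 in library B), and many cells sit at their edges. Over both libraries the median of these 441 cells was 4 EOMES and 17 cycle UMIs.

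The genes of the rule are given as a description and with no test. EOMES stood at 583 CPM in library A and 549 CPM in library B of the dividing EOMES cells (CPM, UMIs of a gene per 1000000 UMIs of the summed cells), against 703 and 735 CPM in non-dividing EOMES cells and 87.5 and 84.7 CPM in all other cells. TOP2A, the topoisomerase that untangles sister chromatids, stood at 1456 and 1265 CPM, against 1112 and 972 CPM in EOMES-negative dividing cells. CENPF, a kinetochore protein, stood at 1050 and 828 CPM against 814 and 708 CPM, and the proliferation antigen MKI67 at 347 and 255 CPM against 271 and 254 CPM. Although both classes met the same cycle rule, the members therefore carried somewhat more TOP2A and CENPF RNA in each library.

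The label was checked against genes that the rule did not use. SOX2, a transcription factor of neural progenitors, had at least 1 UMI in 93.8% of library A's dividing EOMES cells (90.5 to 96.2%), and in library B in 92.5% (86.6 to 96.3%). INSM1, a zinc-finger factor needed for the formation of basal progenitors in mouse, was found in 92.2% (88.6 to 94.9%) and 85.0% (77.7 to 90.6%). Free RNA in droplets gives UMIs in cells that do not express a gene, so the same shares were taken in cells gated as endothelial or microglial. Those shares were 18.8% in library A and 27.5% in library B for SOX2, and 19.4% and 11.9% for INSM1, at median depths of 2509 and 2043.5 UMIs. With every cell thinned to 1500 UMIs, SOX2 was found in 55.8% and 52.6% of dividing EOMES cells, against 11.1% and 21.6% of the vascular and microglial cells. INSM1 was then found in 42.5% and 45.9%, against 11.8% and 9.06%. Both genes were thus well above the background of free RNA at equal depth.

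The proneural factors were detected in fewer members. NEUROD4, a basic helix-loop-helix transcription factor of the neuronal lineage, had a UMI in 47.4% of library A's dividing EOMES cells and 48.9% in library B, against 1.26% and 1.14% of dividing HOPX cells and 3.47% and 2.19% of vascular and microglial cells. NEUROG2, which drives cortical neurogenesis, had one in 45.5% and 52.6% of members, against 13.8% and 10.2% of dividing HOPX cells and 4.86% and 3.44% of vascular and microglial cells. At 1500 UMIs per cell NEUROD4 was found in 16.2% and 14.3% of members and NEUROG2 in 16.2% and 13.5%, against at most 3.44% of vascular and microglial cells for either. DCX, a microtubule-binding protein of young neurons, was found in 73.4% and 64.7% of members, and in 24.7% and 23.3% after thinning, against 11.1% and 14.4% of thinned vascular and microglial cells. TBR1 and NEUROD2 are factors of postmitotic projection neurons, and DLX1 is one of ventral cells. TBR1 was found in 2.60% and 3.01% of members against 3.47% and 0.625% of vascular and microglial cells, with intervals that overlap in each library. NEUROD2 was found in 20.1% and 18.0% against 22.2% and 17.2%, and DLX1 in 9.09% and 9.02% against 11.1% and 17.2%, although the members were deeper. After thinning, NEUROD2 was found in 4.55% and 3.01% of members against 14.6% and 12.2%, and DLX1 in 3.57% and 3.76% against 9.03% and 12.8%. At equal depth neither gene thus exceeded its share in vascular and microglial cells. The part of free RNA in these shares was not tested. PPP1R17, an intermediate progenitor marker in primates, had 1 UMI in the members of library A and 0 in those of library B, where a count of 0 allows a level of up to 2.93 CPM (3 counts of the total).

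**Figure D2:**
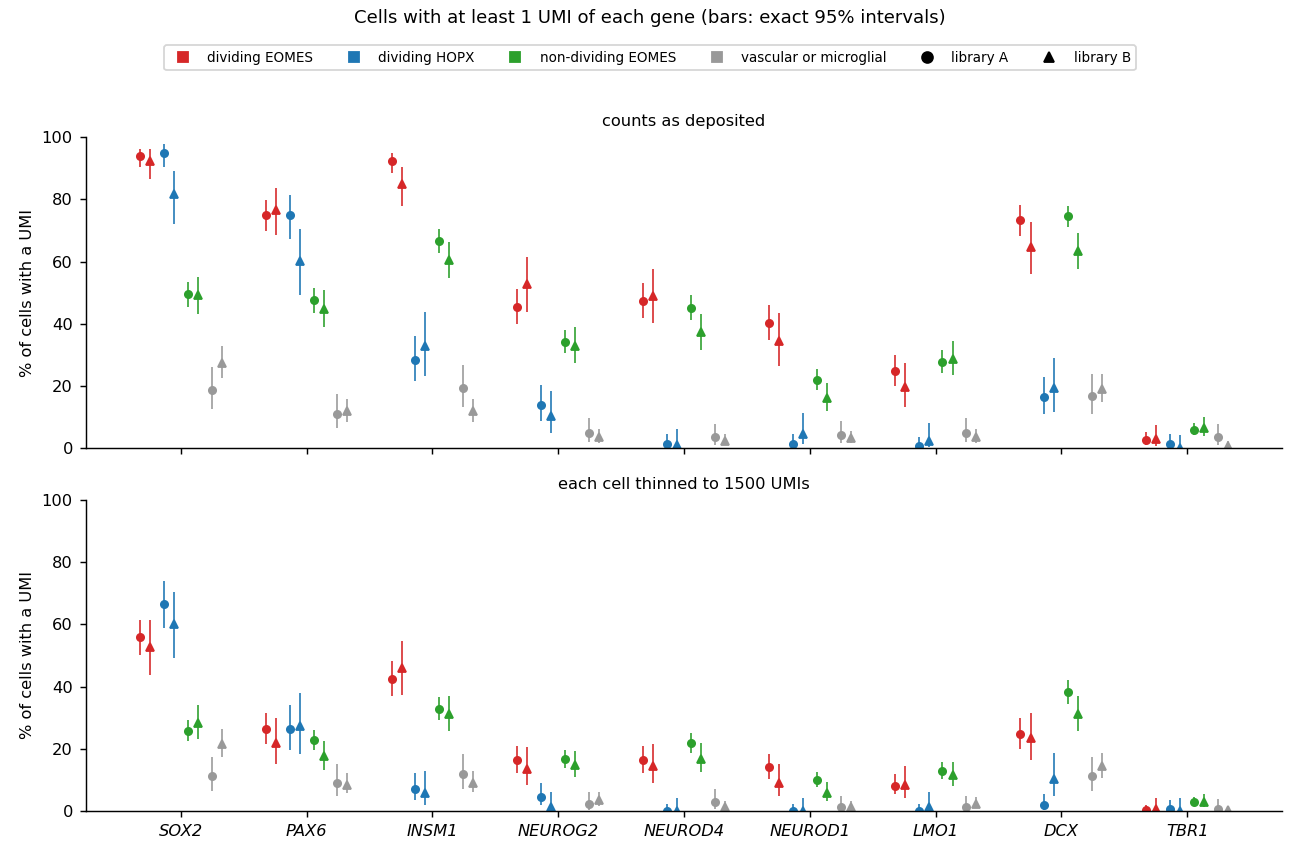
Share of cells with at least 1 UMI of 9 lineage genes (vertical axis, %) in dividing EOMES, dividing HOPX, non-dividing EOMES, and vascular or microglial cells of each library, as deposited above and thinned to 1500 UMIs per cell below; bars are exact 95% binomial intervals. As deposited, SOX2 and INSM1 are each found in most dividing EOMES cells and NEUROD4 and NEUROG2 in smaller shares, while TBR1 is found in few. Detection of these genes together in the same cell was not counted.

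Compared with EOMES-negative dividing cells, the dividing EOMES cells carried more RNA of proneural and intermediate progenitor genes and of some neuronal genes, and less RNA of radial glial, gliogenic and ventral genes. The EOMES-negative dividing class had no OLIG1 limit, so the lower gliogenic RNA is partly set by the rule. Of 11602 genes tested, 945 (8.15%) were higher and 1124 (9.69%) were lower at an adjusted p under 0.05, 17.8% in all (edgeR quasi-likelihood test on UMIs summed per class and library, Benjamini-Hochberg adjustment). A difference beyond 2-fold was seen for 216 higher and 577 lower genes, and the libraries gave the same direction for 2056 of the 2069 calls. DESeq2 called 169 higher and 171 lower, and the fit without the library block called 583 higher and 848 lower. All 3 comparisons below use the same dividing EOMES cells, so they are not independent of each other.

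Of 16 tested genes of the intermediate progenitor list (21 listed), 12 were higher and 0 lower, with a median log2 fold change of 1.22 against -0.00 over all genes. NEUROD4 led, at 119 and 105 CPM in libraries A and B of the dividing EOMES cells, against 6.35 and 7.23 CPM in EOMES-negative dividing cells (log2 fold change 4.16 ± 0.21 SE, adjusted p = 4.6e-22). NEUROD1, a related factor that promotes neuronal differentiation, stood at 86.1 and 62.4 CPM, against 7.22 and 10.9 CPM (3.25 ± 0.23, adjusted p = 1.2e-16). Both genes were higher in the members of each library, a direction that the rule for named genes fixes. NEUROG2 stood at 113 and 139 CPM in the members, against 31.8 and 34.4 CPM (1.97 ± 0.15, adjusted p = 2.3e-15). Its paralogue NEUROG1 was scarcer, at 13.3 and 11.7 CPM against 2.02 and 1.81 CPM (2.74 ± 0.49, adjusted p = 2.1e-05).

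More abundant regulators of the same list differed by smaller factors. INSM1 stood at 418 and 361 CPM in dividing EOMES cells, against 178 and 179 CPM in EOMES-negative dividing cells (log2 fold change 1.21 ± 0.09, adjusted p = 1.9e-15). HES6, which counters the repressor HES1, stood at 783 and 768 CPM against 390 and 379 CPM (1.08 ± 0.07, adjusted p = 3.8e-18). GADD45G, a growth arrest protein switched on in neurogenic progenitors, stood at 389 and 397 CPM against 147 and 189 CPM (1.32 ± 0.09, adjusted p = 1.9e-16). The others that were higher were the corepressor RCOR2 (log2 fold change 1.34), the secreted protein SMOC1 (1.40), the Notch-modifying glycosyltransferase MFNG (1.06), the RNA-binding protein ELAVL2 (0.94) and the AP-2 factor TFAP2C (0.85). Members of the list that were not called were SSTR2 (1.23, adjusted p = 0.15), the antiproliferative gene BTG2 (0.37, adjusted p = 0.071), CORO1C (0.20) and SCRT1 (0.03). NHLH1, NHLH2, PPP1R17, PENK and SCRT2 did not pass the filter on low counts. DESeq2 called 8 of the 16 higher and 0 lower.

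Genes outside the lists, taken by the size of their difference, included receptors and membrane proteins of neurons. NRN1, the membrane-anchored neurite growth protein neuritin, stood at 194 and 227 CPM in dividing EOMES cells, against 30.9 and 41.6 CPM in EOMES-negative dividing cells (log2 fold change 2.63 ± 0.14, adjusted p = 1.2e-21). CHRNA7, a nicotinic acetylcholine receptor subunit, stood at 51.9 and 34.1 CPM against 9.53 and 10.9 CPM (2.25 ± 0.25, adjusted p = 2.5e-10). ADRA2A, an adrenergic receptor, stood at 37.4 and 32.2 CPM against 6.64 and 7.84 CPM (2.39 ± 0.27, adjusted p = 8.7e-10). Transcriptional regulators among them were the AP-2 factor TFAP2D, at 27.8 and 21.5 CPM against 2.60 and 4.22 CPM (3.06 ± 0.37, adjusted p = 2.6e-09), and the LIM-only protein LMO1, at 50.3 and 44.9 CPM against 6.93 and 7.84 CPM (2.80 ± 0.25, adjusted p = 6.6e-13). TMEM163 (log2 fold change 2.85), LIX1 (2.80), SHISAL1 (2.75), the ubiquitin ligase MARCHF1 (2.23) and the sulfotransferase CHST1 (2.22) completed the 12 largest increases among genes with at least 20 CPM in each library of the higher class.

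**Figure D3:**
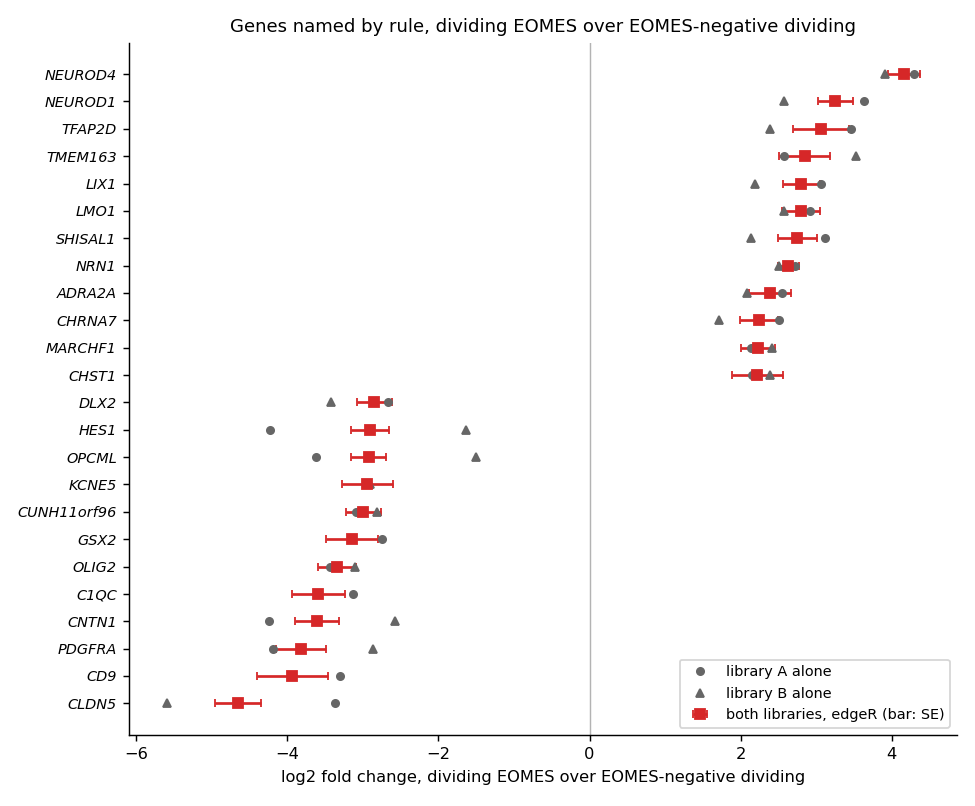
Log2 fold change (horizontal axis) of the 24 genes with the largest called differences between dividing EOMES and EOMES-negative dividing cells: squares give the edgeR value over both libraries with its SE, circles library A alone and triangles library B alone. No gene changes direction between the libraries, which the rule for named genes fixes. HES1 and CLDN5 differ most in size among those drawn in both, and library B is not drawn for CD9, C1QC and GSX2, which had no UMI in its dividing EOMES cells.

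Radial glial genes were lower in the members. Of 27 tested genes (29 listed), 23 were lower and 2 higher, with a median log2 fold change of -1.02. HES1, a Notch effector that keeps progenitors undifferentiated, stood at 5.23 and 29.3 CPM in dividing EOMES cells, against 104 and 95.2 CPM in EOMES-negative dividing cells (-2.91 ± 0.25, adjusted p = 1.0e-13). Taken alone, library A gave -4.23 and library B -1.64, and DESeq2 did not call it (-2.92, adjusted p = 0.16). HOPX stood at 53.5 and 87.8 CPM against 384 and 412 CPM (-2.52 ± 0.12, adjusted p = 1.2e-23). The glutamate transporter SLC1A3 stood at 97.4 and 178 CPM against 472 and 439 CPM (-1.78 ± 0.12, adjusted p = 5.7e-18). Vimentin (VIM), the intermediate filament of radial fibres, stood at 508 and 742 CPM against 1619 and 1649.9 CPM (-1.36 ± 0.07, adjusted p = 1.6e-22). In each of these genes library B of the members was the higher of the 2, and still below both libraries of the other class.

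Progenitor transcription factors within the radial glial list did not move as one. SOX9 (log2 fold change -1.49) and the HES family member HES5 (-1.02) were lower in dividing EOMES cells. SOX2 differed little, at 601 and 578 CPM in the members against 806 and 759 CPM (-0.34 ± 0.06, adjusted p = 4.9e-05). PAX6, which activates EOMES in mouse cortex, was slightly higher, at 230.1 and 199.9 CPM against 191 and 168 CPM (0.33 ± 0.10, adjusted p = 0.016). DMRTA2, a dorsal patterning factor, was also higher (0.66), and the dorsal factor EMX2 was not called (-0.02, adjusted p = 0.94). The lipid-binding protein FABP7 was lower by a modest factor, at 6767 and 8083 CPM against 12483 and 13357 CPM (-0.74 ± 0.03, adjusted p = 3.1e-25). DESeq2 called 13 of the 27 lower and 0 higher.

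Some genes of neuronal differentiation were higher in the members. Of 21 tested genes of neuronal differentiation (24 listed), 9 were higher and 0 lower, with a median log2 fold change of 0.21. DCX stood at 214 and 168 CPM in dividing EOMES cells, against 69.0 and 85.6 CPM in EOMES-negative dividing cells (1.43 ± 0.13, adjusted p = 5.3e-13). The RNA-binding protein ELAVL4 stood at 263 and 252 CPM against 80.9 and 95.2 CPM (1.64 ± 0.11, adjusted p = 4.8e-17). SOX11, a factor of newborn neurons, stood at 624 and 532 CPM against 289 and 288 CPM (1.08 ± 0.08, adjusted p = 4.3e-16), and the tubulin regulator STMN2 at 642 and 556 CPM against 348 and 363 CPM (0.83 ± 0.08, adjusted p = 9.7e-13). The growth cone protein GAP43 (1.02), ELAVL3 (0.89), CRMP1 (0.59) and STMN1 (0.52) were higher too. UNC5D, a netrin receptor known from subventricular and upper-layer cells, was called (0.47) although its libraries went opposite ways, at 147 and 104 CPM against 72.5 and 144 CPM. NEUROD2 (0.39, adjusted p = 0.19) and NEUROD6 (0.21, adjusted p = 0.63), factors of postmitotic projection neurons, were not called, nor were SOX4 (-0.02), MAP1B (0.12), DPYSL3 (0.06) and STMN4 (0.05).

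Cortical layer factors were split, with 10 of 23 tested genes higher and 5 lower (24 listed, median 0.21). ZBTB18, a repressor needed for cortical neurogenesis, stood at 224 and 185 CPM in dividing EOMES cells, against 119 and 109 CPM in EOMES-negative dividing cells (0.93 ± 0.11, adjusted p = 3.0e-09). TSHZ3 (1.21), the upper-layer factors CUX2 (0.85) and POU3F2 (0.56), POU3F3 (0.45) and the nuclear factors NFIX (0.51) and NFIB (0.37) were also higher. The lower genes included deep-layer factors, namely TLE4 at 17.3 and 15.6 CPM against 61.5 and 64.5 CPM (-1.83 ± 0.21, adjusted p = 6.1e-10), BCL11B (-1.42) and FEZF2 (-1.16), beside FOXP1 (-0.91) and LMO4 (-0.55). FEZF2 is also known from progenitors, and TBR1 did not pass the filter on low counts. DESeq2 called 1 of the 23 higher and 1 lower.

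Notch and Wnt genes were compared next. In the Notch pathway, ligands on a neighbouring cell activate receptors whose signal raises HES and HEY repressors. Of 18 tested Notch genes (23 listed), 3 were higher and 7 lower in dividing EOMES cells. DLL3, a divergent ligand that acts within the cell, stood at 197 and 179 CPM against 89.5 and 103 CPM in EOMES-negative dividing cells (1.06 ± 0.12, adjusted p = 3.7e-10), and MFNG and the Notch-related membrane protein DNER (0.41) were higher as well. The receptors NOTCH2 (-0.87) and NOTCH3 (-1.40), the glycosyltransferase LFNG (-1.75), and the effectors HEY1 (-1.58), HES1 and HES5 were lower, as was the coactivator MAML2 (-0.91). DLL1 (-0.03) and NOTCH1 (0.16) were not called. Of 16 tested Wnt genes (23 listed), 9 were lower and 0 higher, with a median of -0.41. They comprised the nuclear effectors TCF7L1 (-2.15) and TCF7L2 (-1.34), the receptors FZD8 (-1.16), FZD2 (-0.41) and LRP5 (-1.33), the ligand WNT7B (-1.46), the secreted SFRP2 (-1.13) and SFRP1 (-0.61), and APC (-0.42). DESeq2 called 1 of the 9 Wnt genes, and in the Notch list 1 gene higher and 3 lower.

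Guidance receptors were among the larger differences. Of 23 tested migration and guidance genes (25 listed), 10 were higher and 6 lower, with a median of 0.09. ROBO1, a receptor for Slit proteins, stood at 621 and 572 CPM in dividing EOMES cells, against 256 and 271 CPM in EOMES-negative dividing cells (1.26 ± 0.08, adjusted p = 1.6e-18). The ephrin receptor EPHA3 stood at 609 and 503 CPM against 222 and 298 CPM (1.21 ± 0.09, adjusted p = 3.2e-15), and the semaphorin receptor subunit PLXNA2 at 295 and 225 CPM against 90.7 and 105 CPM (1.52 ± 0.12, adjusted p = 2.7e-15). SEMA3C (1.47), the cadherin CDH8 (1.47), the netrin receptor DCC (1.33), TENM4 (1.25) and ROBO2 (0.67) were higher too. Lower genes included the reelin adaptor DAB1 (-1.76), the chemokine receptor CXCR4 (-1.12) and the ephrin EFNB1 (-0.88). Of 15 tested adherens junction and polarity genes (19 listed), 5 were lower and 1 higher. The lower ones were the apical membrane protein PROM1 (-3.10), the polarity protein PARD3 (-1.03), PLEKHA7 (-0.79), TJP1 (-0.57) and NECTIN3 (-0.50), and the higher one was CTNNA2 (0.30).

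The cycle lists leave out the genes of the rule, but G2/M genes vary with TOP2A and CENPF, whose levels were also somewhat higher in the members. Of 38 tested G2/M genes, 18 were higher and 0 lower, with a median log2 fold change of 0.24. The spindle protein HMMR (0.72), G2E3 (0.70), the kinesin CENPE (0.66) and the ubiquitin-conjugating enzyme UBE2C (0.64) led. The summed list stood at 17095 and 15626 CPM in dividing EOMES cells, against 14092 and 13957 CPM in EOMES-negative dividing cells. The count depends on the fit, with 9 higher without the library block, 9 with thinned cells and 5 in DESeq2. Of 29 tested S-phase genes (30 listed), 2 were higher and 4 lower. The replication clamp PCNA stood at 334 and 382 CPM against 500 and 474 CPM (-0.40 ± 0.08, adjusted p = 1.2e-04), while CDCA7, a MYC target, stood at 109 and 91.7 CPM against 58.6 and 50.6 CPM (0.94 ± 0.14, adjusted p = 7.8e-07). At 1500 UMIs per cell, 84.1% of members in library A (79.5 to 87.99%) and 92.5% in library B (86.6 to 96.3%) held more G2/M than S-phase UMIs, against 81.3% (77.6 to 84.7%) and 84.0% (79.1 to 88.1%) of EOMES-negative dividing cells. Unthinned, the shares were 86.7% and 89.5% against 82.1% and 85.5%. The intervals of the classes overlap in both libraries, and in each dividing class most cells held more G2/M UMIs, TOP2A and CENPF of the gate being G2/M genes themselves.

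Among cycle regulators, 4 of 16 tested genes were higher and 2 lower (17 listed). The inhibitors CDKN2D (log2 fold change 0.57), CDKN2C (0.39) and CDKN1C (0.38) and the kinase CDK6 (0.39) were higher, and cyclin D2 (CCND2, -0.41) and RBL1 (-0.47) were lower. DESeq2 called none of the 16, nor any S-phase gene, where it called 340 of all 11602 genes, with 956 at an unadjusted p under 0.05. Of 9 tested immediate early genes (13 listed), 6 were lower and 0 higher, with FOS at 151 and 234 CPM in the members against 536 and 473 CPM (-1.40 ± 0.10, adjusted p = 5.3e-16). Immediate early genes respond to growth factors and also to tissue dissociation, whose part was not tested.

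The EOMES-negative dividing class holds cells of other lineages, and many of the larger decreases were in genes of those lineages. OLIG2, a factor of ventral and oligodendrocyte progenitors, stood at 6.84 and 5.85 CPM in dividing EOMES cells, against 78.0 and 53.0 CPM in EOMES-negative dividing cells (-3.35 ± 0.25, adjusted p = 1.6e-15). The oligodendrocyte precursor receptor PDGFRA stood at 2.82 and 3.90 CPM against 55.2 and 30.1 CPM (-3.82 ± 0.33, adjusted p = 1.7e-13), and the growth factor receptor EGFR at 54.7 and 50.7 CPM against 300.1 and 219 CPM (-2.27 ± 0.13, adjusted p = 1.9e-20). In the gliogenic list 8 of 9 tested genes were lower and 1 higher, in the astrocyte list 10 of 12 were lower, and in the ventral list 10 of 14 were lower and 2 higher. The lower ventral genes included DLX2 (-2.85) and GSX2 (-3.15). The endothelial junction protein CLDN5 (-4.65), the complement gene C1QC of microglia (-3.59) and the tetraspanin CD9 (-3.94) were lower as well, with the adhesion molecules CNTN1 (-3.61) and OPCML (-2.92), the channel subunit KCNE5 (-2.94) and CUNH11orf96 (-2.99). This class had no OLIG1 limit, whereas the members and dividing HOPX cells did, so the gliogenic counts of this contrast are partly set by the rule. Against dividing HOPX cells, 1 of 7 tested gliogenic genes was higher and 3 lower, and 1 of 7 ventral genes was higher and 1 lower. Over all genes tested there, 12.1% were higher and 14.4% lower. OLIG2 (-0.70, adjusted p = 0.38) and EGFR (-0.24, adjusted p = 0.44) were not called there in edgeR. Against non-dividing EOMES cells, 3 of 7 gliogenic genes were higher and 0 lower, and 3 of 9 ventral genes were higher and 2 lower. Over all genes of that comparison, 19.4% were higher and 16.1% lower.

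The marker lists of other cell types were summed in each class. The endothelial list (8 genes) stood at 15.3 and 15.6 CPM in dividing EOMES cells, against 78.0 and 374 CPM in EOMES-negative dividing cells and 99.1 and 776 CPM in dividing HOPX cells, with 2 genes at 0 in library A and 4 in library B of the members. The microglial list stood at 47.9 and 28.3 CPM against 113 and 99.5 CPM and 74.7 and 24.2 CPM, with 3 and 8 of its 10 genes at 0 in the members, counting 2 that had no UMI in any cell. The mural list stood at 17.7 and 58.5 CPM, against 62.4 and 80.2 CPM and 97.6 and 144 CPM. At least 3 UMIs of the vascular, blood and immune lists were found in 16 dividing EOMES cells, 98 EOMES-negative and 42 dividing HOPX cells. Without such cells, the intermediate progenitor list had 13 of 16 genes higher and the radial glial list 23 of 27 lower, and without cells carrying ventral genes or OLIG1 (30 members and 255 EOMES-negative dividing cells) those counts were 12 of 15 and 23 of 27. Then 1 of 6 tested ventral genes was still lower and 5 of 7 gliogenic genes were. The cells were removed by DLX1, DLX2, DLX5, GAD1, GAD2 and GSX2 of the ventral list itself, so that ventral count is partly set by the removal. Doublet scores above 0.2 were found in 11.7% of members in library A and 9.02% in library B, against 6.22% and 4.36% of EOMES-negative dividing cells. With those cells removed, 13 of 15 intermediate progenitor genes were higher, 23 of 27 radial glial genes lower, and in the neuronal list 8 genes were higher and 2 lower. Over all genes, 2019 were called without vascular, blood and immune cells and 2010 without ventral cells. With high doublet scores removed 2078 were called, against 2069 with all cells.

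**Figure D4:**
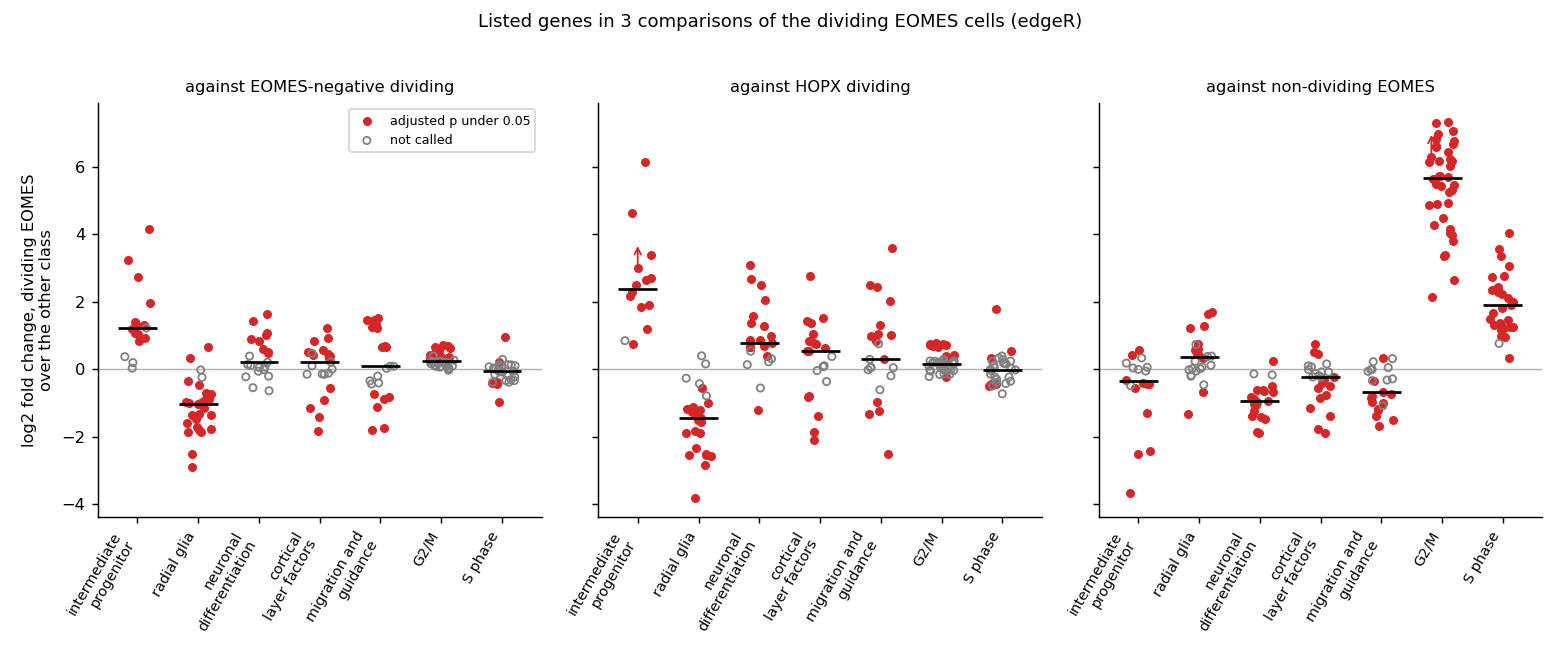
Log2 fold change (vertical axis) of the tested genes of 7 lists in the comparisons of dividing EOMES cells with EOMES-negative dividing, dividing HOPX and non-dividing EOMES cells; filled points had an adjusted p under 0.05 in edgeR, open points did not, and the line is the median. Arrows mark lower bounds for 2 genes with no UMI in the other class; intermediate progenitor genes lie above 0 in the first 2 panels, radial glial genes mostly below, and in the last panel the S and G2/M lists follow the gate.

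Against dividing HOPX cells, the class nearest to outer radial glia, intermediate progenitor genes were again higher and radial glial genes lower, and NEUROD4 had 3 UMIs in all of the other class. Of 10163 genes tested with edgeR, 1228 (12.1%) were higher and 1466 (14.4%) lower, 26.5% in all, and DESeq2 called 248 higher and 373 lower. HOPX is part of the rule here and no result. This comparison shares its member cells with the one above, and dividing HOPX cells are a subset of the EOMES-negative dividing cells.

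NEUROD4 stood at 119 and 105 CPM in dividing EOMES cells, against 1.57 and 1.62 CPM in dividing HOPX cells (log2 fold change 6.16 ± 0.38, adjusted p = 5.0e-55). Summed over both libraries these were 405 UMIs against 3, a ratio of 72.7 with a counting interval of 24.7 to 354. NEUROD1 stood at 86.1 and 62.4 CPM against 1.57 and 6.47 CPM (4.63 ± 0.37, adjusted p = 8.5e-33). LMO1 had 171 UMIs against 3, a ratio of 30.7 (10.3 to 150.2), and TFAP2D 91 against 2, a ratio of 24.5 (6.59 to 205). NEUROG1 had 45 UMIs in the members and 0 in dividing HOPX cells, at least 8.07-fold higher on a floor of 3 counts over the class. Of 14 tested intermediate progenitor genes 13 were higher, with a median of 2.39 (unchanged with NEUROG1 at its bound), among them GADD45G (3.39), NEUROG2 (2.71), RCOR2 (2.66), INSM1 (2.49) and HES6 (2.18). The zinc-finger gene ZNF385B (4.26), SHISAL1 (3.90), CHRNA7 (3.89) and LIX1 (3.79) completed the 8 largest increases among genes with at least 20 CPM in each library of the members.

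The Notch ligands did not move as one. DLL3 stood at 197 and 179 CPM in dividing EOMES cells, against 10.2 and 24.2 CPM in dividing HOPX cells (3.71 ± 0.22, adjusted p = 1.7e-59). DLL1, the main ligand of neurogenic progenitors, stood at 32.6 and 34.1 CPM against 11.8 and 4.85 CPM (1.88 ± 0.36, adjusted p = 2.5e-06). JAG1, another ligand, was not called (0.05, adjusted p = 0.96), with 1.37 in library A and -1.58 in library B. HES1 stood at 5.23 and 29.3 CPM against 207 and 168 CPM (-3.82 ± 0.21, adjusted p = 4.3e-69), although library A alone gave -5.21 and library B alone -2.46. In the Notch list 5 of 18 tested genes were higher and 6 lower, the lower ones including LFNG (-2.54), HEY1 (-2.36), NOTCH3 (-2.21) and NOTCH2 (-1.62). In the Wnt list 9 of 16 were lower and 0 higher, led by TCF7L1 (-2.78) and WNT7B (-2.25).

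In the radial glial list 21 of 26 tested genes were lower in dividing EOMES cells and 0 higher, with a median of -1.44. VIM stood at 508 and 742 CPM against 2348 and 2337 CPM in dividing HOPX cells (-1.88 ± 0.08, adjusted p = 5.0e-106). The membrane protein TTYH1 (-2.83), the secreted chaperone CLU (-2.57), SLC1A3 (-2.55), ID4 (-2.51) and the matrix protein TNC (-2.34) followed. SOX2 was lower by a small factor (-0.56), and PAX6 (0.16, adjusted p = 0.42), DMRTA2 (0.40), EMX2 (-0.27), LIFR (-0.79) and PEA15 (-0.43) were not called. Astrocyte genes were lower in 10 of 12 cases, with the sodium pump subunit ATP1B2 at 15.3 and 15.6 CPM against 167 and 155 CPM (-3.33 ± 0.21, adjusted p = 6.5e-54). GJB6, a gap junction protein (-4.08), CSGALNACT1 (-3.94), PROM1 (-3.75), LAMA4 (-3.48) and GMPR (-3.48) were the other largest decreases, among genes with at least 20 CPM in each library of the dividing HOPX cells, besides CLDN5 (-5.62), which stood at 2.41 and 3.90 CPM against 44.1 and 424 CPM. Endothelial markers as a list were higher in library B of the dividing HOPX cells, as given above, and without vascular, blood and immune cells 22 of 26 radial glial genes were lower. That fit called 2696 genes in all, against 2694 with all cells.

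Genes of neuronal differentiation were higher in 15 of 21 tested cases and lower in 1 (NRP1, -1.20), with a median of 0.79. ELAVL4 (3.09), DCX (2.68), STMN2 (2.50) and SOX11 (2.06) led, and NEUROD2 (0.85) and NEUROD6 (0.85) were called although library B of the dividing HOPX cells lay near or above the members. NEUROD2 stood at 41.4 and 42.9 CPM in the members against 16.5 and 38.8 CPM. NRP1, a semaphorin receptor also found in vessels, differed by 0.16 in library A and -2.53 in library B, and without vascular, blood and immune cells no gene of the list was lower. DESeq2 called 9 genes of the list higher, and with doublet scores above 0.2 removed edgeR called 10, among 2612 called over all genes. Of 22 tested guidance genes 10 were higher and 4 lower, with DCC at 251 and 265 CPM against 24.4 and 17.8 CPM (3.60 ± 0.19, adjusted p = 1.4e-73). Among layer factors 11 of 21 were higher and 5 lower. POU3F1 (2.76), CUX2 (1.44), SOX5 (0.78) and FOXP2 (0.63) were among the higher ones, and TLE4 (-2.09), FEZF2 (-1.86) and LHX2 (-0.81) among the lower. ZFPM2 (0.10) was not called.

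Cycle regulators separated these dividing classes. CDKN1C (p57), an inhibitor linked to cell cycle exit, stood at 124 and 118 CPM in dividing EOMES cells, against 26.8 and 21.0 CPM in dividing HOPX cells (2.36 ± 0.22, adjusted p = 7.0e-26). CDK6 stood at 325 and 266 CPM against 143 and 157 CPM (1.07 ± 0.13, adjusted p = 1.0e-14), and cyclin D1 (CCND1) at 29.0 and 44.9 CPM against 14.9 and 22.6 CPM (1.03 ± 0.31, adjusted p = 4.5e-03). In all 8 of 16 tested regulators were higher and 0 lower, of which DESeq2 called 2. The G2/M list had 10 of 38 higher and 1 lower, and the S-phase list 3 of 29 higher and 3 lower. At 1500 UMIs per cell, 84.9% (78.4 to 90.1%) of dividing HOPX cells in library A and 86.4% (77.4 to 92.8%) in library B held more G2/M than S-phase UMIs, so the intervals overlapped those of the members.

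Against non-dividing EOMES cells, the members carried more SOX2 and other progenitor RNA and less RNA of neuronal genes, and the proneural factors differed by small amounts in either direction. Of 11089 genes tested with edgeR, 2146 (19.4%) were higher and 1789 (16.1%) lower, 35.5% in all, and DESeq2 called 808 and 422. The cycle rule sets this contrast, so the S and G2/M lists, higher in 28 of 29 and 38 of 38 tested genes, follow from it, as do the largest increases. Those were the mitotic genes CENPL (77 UMIs against 0, at least 30.4-fold higher on a floor of 3 counts over the class), KIF14 and FAM83D (each 175 UMIs against 1, a ratio of 208 with an interval of 36.8 to 8243), SHCBP1 (157 against 1), DLGAP5 (log2 fold change 7.18), DEPDC1B (7.02) and CCNB3 (6.95), with the kinase STK17B (151 UMIs against 1). The members were also the deeper class, and with thinned cells the counts were 1022 higher and 821 lower.

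Of 18 tested intermediate progenitor genes, 2 were higher and 9 lower, with a median of -0.36. INSM1 was higher, at 418 and 361 CPM in dividing EOMES cells against 286 and 259.9 CPM in non-dividing EOMES cells (0.56 ± 0.07, adjusted p = 1.2e-05), and so was NEUROD1, at 86.1 and 62.4 CPM against 65.0 and 51.2 CPM (0.41 ± 0.13, adjusted p = 0.020). NEUROD4 was lower, at 119 and 105 CPM against 178 and 125 CPM (-0.43 ± 0.11, adjusted p = 4.1e-03). NEUROG2 (-0.05, adjusted p = 0.73), HES6 (0.04), MFNG (0.06) and BTG2 (-0.01) were not called. The helix-loop-helix factor NHLH1, which marks newly born neurons, was lower, with 3 UMIs in the members against 50, a 14.1-fold difference with an interval of 4.54 to 70.4. The somatostatin receptor SSTR2 stood at 5.23 and 6.83 CPM against 38.0 and 24.3 CPM (-2.50 ± 0.31, adjusted p = 7.2e-06), and the Scratch repressors SCRT2 (-2.41) and SCRT1 (-1.30) were lower too. GADD45G (-0.32), SMOC1 (-0.54), ELAVL2 (-0.44) and RCOR2 (-0.40) were the other lower genes. DESeq2 called 1 gene of the list higher and 2 lower.

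SOX2 stood at 601 and 578 CPM in dividing EOMES cells, against 246 and 280.1 CPM in non-dividing EOMES cells (1.23 ± 0.08, adjusted p = 1.4e-09). The serine synthesis enzyme PHGDH stood at 75.2 and 88.8 CPM against 25.6 and 23.5 CPM (1.71 ± 0.16, adjusted p = 3.9e-07), and MOXD1 (1.65), LIFR (1.28), SOX9 (0.74), GLI3 (0.58), PAX6 (0.47) and VIM (0.32) were higher as well. In all, 11 of 26 tested radial glial genes were higher and 2 lower (PEA15, -1.33, and EMX2, -0.68). HES1 (-0.46, adjusted p = 0.27), HES5 (-0.18), SLC1A3 (0.24), TNC (-0.02), HOPX (0.39, adjusted p = 0.063) and FABP7 (0.01) were not called. DESeq2 called 4 radial glial genes higher and 2 lower.

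Neuronal genes were lower in the members in 18 of 21 tested cases and higher in 1 (STMN1, 0.24), with a median of -0.95. NEUROD2 stood at 41.4 and 42.9 CPM in dividing EOMES cells, against 167 and 150.1 CPM in non-dividing EOMES cells (-1.90 ± 0.12, adjusted p = 3.3e-09). STMN2 stood at 642 and 556 CPM against 1174 and 1304 CPM (-0.98 ± 0.07, adjusted p = 1.8e-08), and DCX at 214 and 168 CPM against 342 and 261 CPM (-0.62 ± 0.08, adjusted p = 1.0e-05). MYT1L (-1.87), MAPT (-1.47), UNC5D (-1.39) and NEUROD6 (-1.05) were lower too. Of 23 tested guidance genes 12 were lower and 1 higher, with ROBO1 at 621 and 572 CPM against 1527 and 1296 CPM (-1.21 ± 0.06, adjusted p = 3.9e-11). Of 24 tested layer factors 11 were lower, among them TBR1 (-1.88) and CUX2 (-1.15), and 3 were higher. The largest decreases outside the lists were taken among genes with at least 20 CPM in each library of the non-dividing EOMES cells. They were the receptor auxiliary subunit KCTD16 (-2.71), the synaptic vesicle GTPase RAB3A (-2.59), TAMALIN (-2.43), PARVG (-2.35), NXPH4 (-2.25), ISLR2 (-2.25) and the histone demethylase KDM5B. KDM5B stood at 52.7 and 42.9 CPM against 249 and 209.6 CPM (-2.21 ± 0.11, adjusted p = 8.8e-11). CDKN1C was lower in the members, at 124 and 118 CPM against 277 and 335 CPM (-1.25 ± 0.10, adjusted p = 3.0e-08), whereas the INK4 inhibitors CDKN2D (2.95) and CDKN2C (2.28) were higher.

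Placed in a row, dividing HOPX cells, dividing EOMES cells, non-dividing EOMES cells and neuronal cells without EOMES (4297 cells with at least 2 UMIs of NEUROD2 and NEUROD6 and no cycle or ventral UMIs) show where each gene is high. These are descriptions with no test, and the classes are gates, not a measured time order. INSM1 was highest in dividing EOMES cells of both libraries, at 418 and 361 CPM, and stood at 187 and 191 CPM in neuronal cells and 74.7 and 71.1 CPM in dividing HOPX cells. NEUROD4 and LMO1 were highest in non-dividing EOMES cells. NEUROD4 stood at 7.48 and 5.57 CPM in neuronal cells, close to its level in EOMES-negative dividing cells, while LMO1 stood at 50.3 and 44.9 CPM in dividing EOMES cells, 96.9 and 105 CPM in non-dividing EOMES cells and 34.4 and 42.1 CPM in neuronal cells. NEUROG2 did not separate the EOMES classes, at 113 and 139 CPM in dividing and 124 and 142 CPM in non-dividing cells. SOX2 became scarcer at each class of the row, with 601 and 578 CPM in dividing EOMES cells and 47.7 and 54.3 CPM in neuronal cells. STMN2 ran the other way, at 99.9 and 129 CPM in dividing HOPX cells, 642 and 556 CPM in dividing EOMES cells and 1826 and 1941 CPM in neuronal cells. PAX6 was at a like level in dividing EOMES and dividing HOPX cells, at 231 and 168 CPM in the HOPX class, and at 29.6 and 25.2 CPM in neuronal cells.

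**Figure D5:**
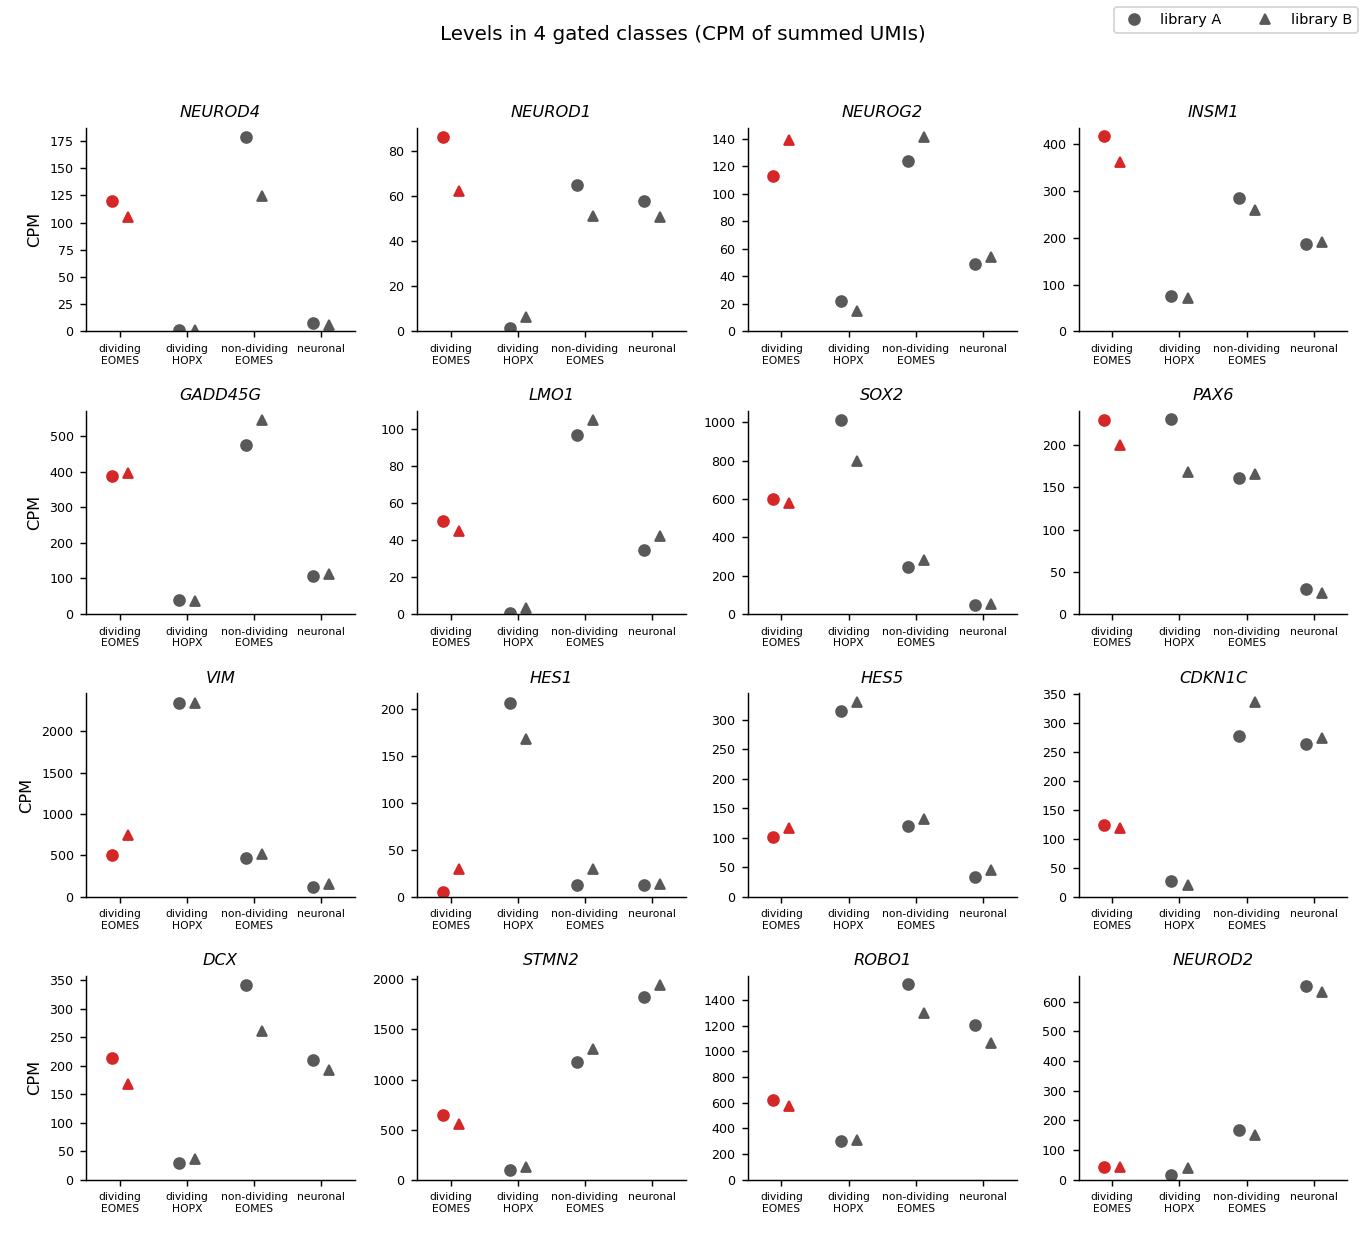
Level in CPM (vertical axes) of 16 genes in dividing EOMES, dividing HOPX, non-dividing EOMES and neuronal cells; circles are library A and triangles library B, and there is no error bar because each point is 1 sum. INSM1 peaks in the dividing EOMES cells, NEUROD4 and LMO1 in the non-dividing EOMES cells, and HES1 and VIM are high in dividing HOPX cells.

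The members also varied among themselves, which is described with no test. A HOPX UMI was found in 73 members of library A (23.7%) and 36 of library B (27.1%), a smaller share than the 43.8% and 47.5% of vascular and microglial cells. The part of free RNA in these UMIs was not tested. Members with a HOPX UMI were deeper, at medians of 8781 and 8587 UMIs against 7625 and 6921 in those without. They carried more of other radial glial RNA. VIM stood at 835 and 1034 CPM in members with a HOPX UMI, against 396 and 601 CPM in those without, SLC1A3 at 213 and 344 CPM against 57.8 and 96.98 CPM, and the radial glial list without HOPX at 15360 and 18423 CPM against 9658 and 10684 CPM. The intermediate progenitor list, without NEUROD1 and NEUROD4, stood at 2421 and 2048 CPM against 2383 and 2394 CPM, slightly higher in library A and lower in library B.

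NEUROD1 or NEUROD4 had a UMI in 194 members of library A (63.0%) and 80 of library B (60.2%), at median depths of 8075 and 7286 UMIs, against 7187 and 6956 in the others. PCNA stood at 272 and 305 CPM in members with either factor, against 448 and 498 CPM in those without, and the S-phase list at 2844 and 2854 CPM against 3694 and 3644 CPM. The G2/M list stood at 18246 and 16803 CPM against 14977 and 13870 CPM. STMN2 was also higher where either factor was detected, at 759 and 617 CPM against 425 and 464 CPM, and SOX2 was lower, at 532 and 531 CPM against 729 and 649 CPM. A HOPX UMI and a UMI of either NEUROD factor occurred together in 48 members of library A (15.6%) and 20 of library B (15.04%), and doublets among them were not tested.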

How the data were processed

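The authors deposited a single table of UMI counts, whole numbers by gene and cell. The submitters' processing notes name Cell Ranger; neither a version nor a genome build is given in the sources used here. Totals ran from 1501 to 16955 UMIs per cell (60743615 in all). Members, gene lists and tests were chosen with earlier results of these data known. UMIs were summed per class and library (4 sums a comparison) and tested with edgeR 4.0.16 under R 4.3.3 (TMM normalization, filterByExpr, library as a block, 1 residual degree of freedom) over all genes tested; the block pairs classes of the same library. SEs are the log2 fold change over the square root of F. DESeq2 1.42.0 was an alternative. The fit was tested on simulated data. Named genes had an adjusted p under 0.05, the same direction in both libraries, at least 20 CPM in the higher class in each library, and no LOC symbol (12 and 12 with the largest changes, then 8 and 8, without S and G2/M genes in the third comparison); genes of the lists could be named too. Where a gene was singled out as an exception, it was chosen after its value was seen. Doublets were scored with Scrublet in scanpy 1.11.5 and kept, except in an alternative. Counts per cell were thinned to 1500 UMIs where stated. Counting intervals are exact, at 95%, and counting precision is set by the summed UMIs of each class. Some genes of the lists are not reported here by name.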

Additional observations from a re-analysis of the deposited data

How the results depend on the processing

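Calls were fewest with DESeq2, which gave 169 genes higher and 171 lower against EOMES-negative dividing cells, 248 and 373 against dividing HOPX cells, and 808 and 422 against non-dividing EOMES cells. Thinning every cell to 1500 UMIs gave 317 and 399, 359 and 482, and 1022 and 821. Without the replicate block, 583 genes were higher against EOMES-negative dividing cells. Among the calls tested again, none changed direction in DESeq2 or without the block, which use the same sums, whereas 22 of 1565, 33 of 1675 and 27 of 3070 had the opposite sign in thinned cells, and 11 of 2005 without ventral cells in the first comparison. The cause of the lower counts was not tested. The share of cells moved with the gate, to 2.07% in library A and 1.60% in library B with the stricter gate (at least 3 EOMES and 6 cycle UMIs), to 4.805% and 4.10% with the looser one (at least 1 and 2), and to 0.562% and 0.360% with the gate applied to thinned cells. That last gate left 18 members in library B, under the minimum of 20, so its comparisons were not run. Of the named genes tested again, none reversed, but thinning left 19 of 24, 8 of 16 and 14 of 16 to test, and smaller numbers also dropped out with the stricter gate and without vascular or ventral cells. DESeq2 did not call CHST1 (log2 fold change 2.27, adjusted p = 0.054), CD9 (-4.75, 0.115), OPCML (-2.58, 0.14) and HES1 against EOMES-negative dividing cells. With 2 libraries, each left out in turn leaves a value with no test. The rule for named genes fixes their direction; without library A, 7 of 24, 4 of 16 and 8 of 16 moved by more than the SD of both libraries' values, and SHISAL1 against dividing HOPX cells was 2.70 in library B alone and 4.99 in library A alone. The alternatives without vascular, blood, immune or ventral cells were chosen after seeing the data. Depth limits what can be said of genes with few UMIs in a class, such as NEUROG1 and PPP1R17.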
